A study of Homo sapiens with 6 samples.

Results

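MAP kinase signalling is held in check by inhibitors that the pathway itself often induces, and 10 genes for such inhibitors were followed across the 6 RNA-seq libraries. They were chosen by gene symbol and comprise 6 dual-specificity MAP kinase phosphatases (DUSP1, DUSP4, DUSP5, DUSP6, DUSP10 and DUSP14) and 4 genes for Sprouty or SPRED proteins (SPRY2, SPRY4, SPRED1 and SPRED2). All 10 have a row in both deposited tables, out of 25368 gene symbols. All libraries came from MRC5 cells, human embryonic lung fibroblasts that had been immortalised with hTERT, so every condition is a treatment of 1 cell line. In the JUN overexpression experiment the cells were infected for a few hours with adenovirus carrying an empty vector (control), FLAG-tagged wild-type JUN (JUN WT) or a FLAG-tagged JUN whose JNK phosphorylation sites were both changed to alanine (JUN AA), and were then cultured for several days. In the JNKi experiment, untreated MRC5 cells were compared with iCAFs, which are MRC5 cells kept for 7 days in medium conditioned by MDA-MB-231 breast cancer cells, and with iCAFs given 1 µM of the JNK inhibitor JNK-IN-8 (JNKi) for 48 hours. The protocol names a vehicle for iCAFs without the inhibitor, but the label of the iCAFs library does not mention it. Each condition has 1 library, so no difference below has a replicate check, no error can be attached to a value, and no test between conditions was made.

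ERK, JNK and p38 are activated when their activation loop is phosphorylated on a threonine and a tyrosine, and dual-specificity phosphatases switch them off by removing both phosphates. DUSP1, DUSP4 and DUSP5 are nuclear and inducible, DUSP6 is cytoplasmic and selective for ERK, DUSP10 acts on JNK and p38, and DUSP14 is a small phosphatase without the kinase-docking domain of the others. Sprouty proteins act further upstream and limit the signal from receptor tyrosine kinases to RAS and ERK, while SPRED proteins bring neurofibromin to the membrane, where it inactivates RAS. In fibroblasts several of these genes are induced by growth factors, so their mRNA is often read as a trace of recent MAP kinase activity.

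Values are FPKM, fragment counts scaled by the authors to transcript length and library size, and they can be compared between genes because they are scaled by length. A change is a difference of log2(FPKM + 1), which understates the change of low genes, and a gene is said to have risen or fallen where this difference reached 1, that is 2-fold on that scale. Fold values are plain ratios of FPKM. The tables were normalised separately, so values were compared only within a table. The deposited FPKM summed to between 494604 and 613185 in the JUN overexpression libraries and to between 359947 and 399535 in the JNKi libraries, and the number of reads is unknown. JUN mRNA was at 25.5 FPKM in control cells, 4543 with JUN WT and 291 with JUN AA, so that JUN WT and JUN AA differ 15.6-fold in JUN mRNA as well as in the phosphorylation sites, and those differences cannot be told apart. In the JNKi table JUN was at 57.1 FPKM in untreated MRC5, 55.3 in the iCAFs library and 21.1 after JNKi. All 9 fibroblast markers were at 12.1 FPKM or more in every library. Their summed level was 6773, 6076 and 4888 FPKM in the control, JUN WT and JUN AA, and 7615, 7923 and 11961 FPKM in MRC5, iCAFs and iCAFs+JNKi. Of 7 epithelial markers, CDH1 and KRT5 were listed at 0 in every library, EPCAM did not exceed 0.24 FPKM, and the summed level, mostly KRT18 and KRT8, ranged from 19.9 to 57.1 FPKM in the JUN overexpression libraries and from 33.2 to 40.8 FPKM in the JNKi libraries. Of 6 leukocyte and endothelial markers, CD3E and CDH5 were listed at 0 in every library and PTPRC did not exceed 0.015 FPKM. CD68, a lysosomal protein, made up nearly the whole of that list, which summed to 32.8, 85.8 and 31.1 FPKM in the control, JUN WT and JUN AA and to 48.8, 39.6 and 37.99 FPKM in MRC5, iCAFs and iCAFs+JNKi. Of the 9 fibroblast markers, COL1A1, LUM and PDGFRB fell in JUN WT against the control and none rose, where 3.39% of all genes fell and 6.92% rose. In JUN AA against the control COL3A1, FN1 and PDGFRB fell and LUM rose, where 3.77% of all genes fell and 5.29% rose. Set against JUN AA, JUN WT was at -3.22 for LUM and at 1.08 for FN1, and the other 7 markers differed by less than 2-fold. Of all genes, 5.61% were at least 2-fold lower there and 6.65% at least 2-fold higher. In iCAFs against MRC5 DCN fell and none rose, where 1.71% of all genes fell and 1.94% rose. With JNKi against iCAFs 5 of the 9 rose and none fell, where 2.25% of all genes rose and 1.97% fell. The part of these markers in the differences below was not tested. In RNA from whole cultures, fewer cells that express a gene and less of its RNA per cell cannot be told apart.

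JUN binds DNA as part of AP-1 and also with partners that recognise cyclic AMP response elements (CRE), so the proximal promoters of the genes were searched for both. RefSeq promoters on GRCh38.p14, running from 250 bases before to 50 bases after an annotated start, were found for 8 of the 10 genes, with 12 starts in all. DUSP4 and DUSP5 were not among them. The windows of 3 genes are shown, up to the base before the start, because DUSP1, DUSP6 and SPRY2 gave some of the widest differences between conditions and differ in what their promoters hold. They read 5′ to 3′ on the gene's own strand, and capitals mark the CRE half-site TGACG or its reverse complement CGTCA.
DUSP1, chr5:172771196-172771445, minus strand: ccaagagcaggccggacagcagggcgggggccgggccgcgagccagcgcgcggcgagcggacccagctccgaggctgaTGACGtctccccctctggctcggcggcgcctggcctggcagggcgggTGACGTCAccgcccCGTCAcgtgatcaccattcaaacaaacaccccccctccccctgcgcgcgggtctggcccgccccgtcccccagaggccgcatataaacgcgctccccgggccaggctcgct
SPRY2, first start, chr13:80341127-80341376, minus strand: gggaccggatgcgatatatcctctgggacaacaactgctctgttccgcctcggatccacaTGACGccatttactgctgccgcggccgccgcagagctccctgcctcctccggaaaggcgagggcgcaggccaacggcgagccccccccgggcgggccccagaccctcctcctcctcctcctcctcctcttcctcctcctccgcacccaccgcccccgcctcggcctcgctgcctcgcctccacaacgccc
DUSP6, chr12:89352502-89352751, minus strand: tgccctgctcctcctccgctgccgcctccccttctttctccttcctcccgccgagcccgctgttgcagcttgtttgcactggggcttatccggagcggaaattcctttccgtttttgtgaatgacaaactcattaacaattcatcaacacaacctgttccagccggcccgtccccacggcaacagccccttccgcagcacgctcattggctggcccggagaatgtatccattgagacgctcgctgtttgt
The DUSP1 window holds 4 half-site matches, which begin 172, 125, 122 and 111 bases before the start. Those at 125 and 122 overlap and together form the full palindromic CRE. Such a count is rare, since 110 of 35116 promoters (0.313%) hold at least 4 matches. The first SPRY2 window holds a single match, 190 bases before the start, and the DUSP6 window holds none. Across the 10 genes, 5 of the 12 windows held at least 1 half-site, against 24.6% of all promoters. The AP-1 heptamer, searched as TGACTCA and TGAGTCA, was found in 1 of the 12 windows, at the second SPRED2 start, against 4.95% of all promoters. The ETS core CCGGAA was found in 1 window, the first of SPRY2, against 17.2%. Both strands were searched. These matches describe letters in short windows and not sites bound by a factor.

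The levels of the 10 genes in each library set the scale for the comparisons. DUSP14 had the highest FPKM of the 10 in the control, JUN WT, JUN AA and MRC5, while DUSP1 was the highest in iCAFs and iCAFs+JNKi. DUSP4 was the lowest in every library. It was at 1.13 FPKM in control cells, 0.69 with JUN WT and 0.73 with JUN AA, and at 2.69, 5.08 and 3.67 FPKM in MRC5, iCAFs and iCAFs+JNKi. With a mean below 1 FPKM over the JUN overexpression libraries, DUSP4 did not pass the filter set for that table, so counts there are over 9 genes. Each of those 9 was above 1 FPKM in every library, and all 10 passed in the JNKi table. SPRED1 and SPRED2 were the least variable in the JNKi table, where the highest library was 1.18-fold and 1.15-fold above the lowest. DUSP5 and SPRY2 were the most variable there, with 5.82-fold and 4.54-fold ranges.

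**Figure D1:**
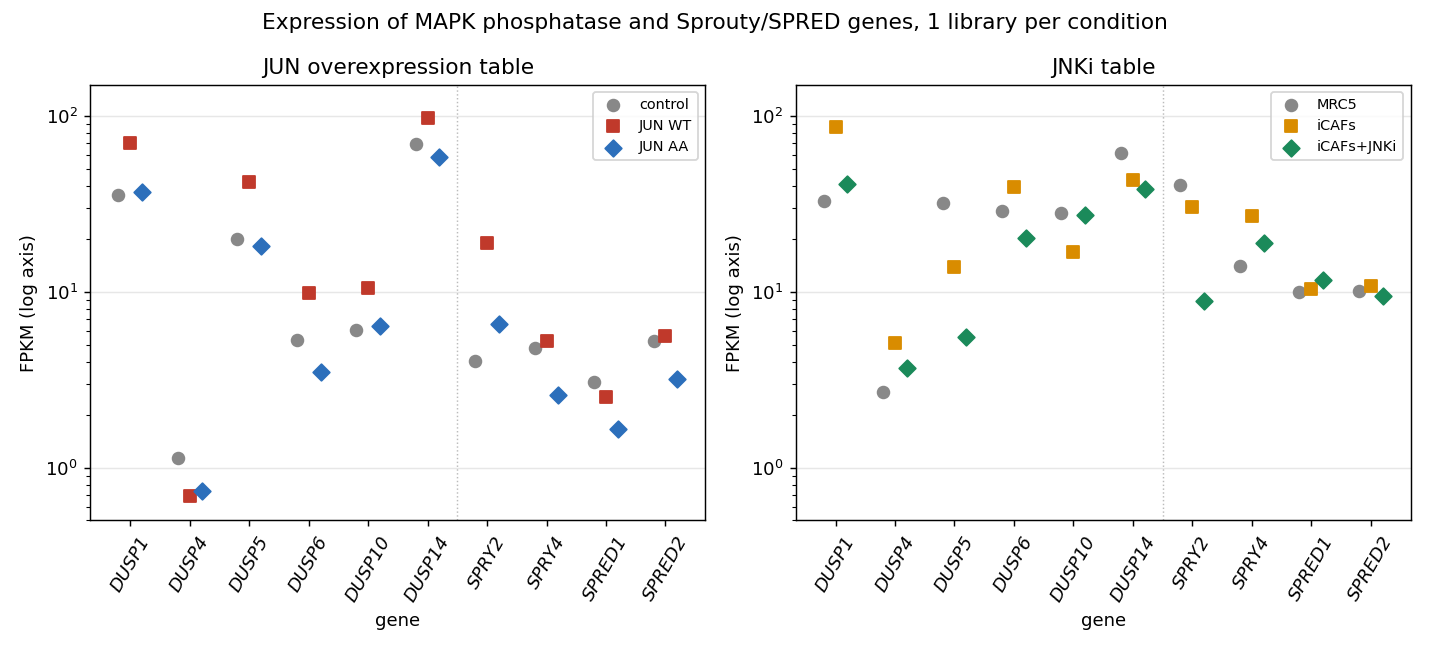
FPKM of the 10 genes (log axis) in the 3 libraries of the JUN overexpression table (left) and of the JNKi table (right), with 1 point per library and a dotted line between the phosphatases and the Sprouty and SPRED genes. JUN WT is the highest library for 8 of the 10 genes, all but DUSP4 and SPRED1, and SPRY2 and DUSP5 are lowest in iCAFs+JNKi at 8.90 and 5.49 FPKM.

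The first comparison asked what overexpressed JUN did to these genes. SPRY2 and DUSP5 rose in JUN WT against the control, and none of the 9 genes fell. Over all 10311 genes tested, 6.92% rose and 3.39% fell (10.3% in either direction), so 2 of 9 is a larger share than the background but a small count. With changes centred on the median gene, 4.23% of all genes rose and 5.06% fell. The median of the 9 genes was 0.70, against 0.15 over all genes tested, and 8 of the 9 were higher in JUN WT, against 60.9% of all genes. Of those 8, SPRY4 and SPRED2 turned to slightly negative values when the changes were centred or the trend with transcript GC content was removed. With that trend removed the median of the 9 genes was 0.26, against 0 over all genes. In JUN AA against the control no member rose or fell, where 5.29% of all genes rose and 3.77% fell (9.06% together). When every library was scaled to an equal FPKM total, those shares were 3.28% and 9.28%, the median gene was at -0.29, and SPRY4 was past the threshold at -1.03. The median of the 9 genes in JUN AA was -0.23, against -0.015 over all genes.

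SPRY2 showed the largest change of the 10 genes in this experiment. The gene lies on chromosome 13 of GRCh37 from 80910111 to 80915261, and it was at 4.05 FPKM in control cells, 18.9 with JUN WT and 6.59 with JUN AA. The JUN WT library thus stood 4.67-fold above the control, a log2 change of 1.98 that 0.53% of the tested genes exceeded, while JUN AA was 1.63-fold above it, at 0.59. Across 5 alternative settings the change in JUN WT lay between 1.64 and 2.20. Within the JUN WT library SPRY2 was the fourth highest of the 10 genes, and in the control it was the eighth. SPRY4, on chromosome 5 from 141689992 to 141706020, was at 4.797 FPKM in control cells, 5.25 with JUN WT and 2.60 with JUN AA. Its log2 changes were 0.11 in JUN WT and -0.69 in JUN AA, so SPRY4 was set apart from SPRY2 by a level in JUN WT close to that in the control.

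Among the nuclear phosphatases, DUSP5, an ERK phosphatase on chromosome 10 from 112257665 to 112271291, was at 20.04 FPKM in control cells, 41.9 with JUN WT and 18.3 with JUN AA. This is a log2 change of 1.03 for JUN WT and of -0.13 for JUN AA. DUSP5 lay just past the threshold, and the change became 0.88 when changes were centred on the median gene. DUSP1, on chromosome 5 from 172195099 to 172198198, lay just short of it, at 35.5 FPKM in control cells, 70.2 with JUN WT and 37.1 with JUN AA. These are log2 changes of 0.97 and 0.06. For both genes the control and JUN AA were close to each other and JUN WT stood above them, although with rescaled FPKM JUN AA was lower than the control, at -0.24 for DUSP1 and -0.43 for DUSP5. DUSP4, on chromosome 8 from 29190581 to 29208201, was at 0.61 times its control level in JUN WT, but at such low FPKM the ratio rests on an unknown number of fragments.

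The remaining phosphatases were less than 2-fold higher in JUN WT. DUSP6, on chromosome 12 from 89741012 to 89746278, was at 5.33 FPKM in control cells, 9.89 with JUN WT and 3.51 with JUN AA, so that the control lay between the JUN libraries. The log2 changes were 0.78 for JUN WT and -0.49 for JUN AA. DUSP6 shares exon bases with an antisense gene on the annotation used, and as the strand setting is not given, reads of the 2 genes cannot be told apart. DUSP10, on chromosome 1 from 221874766 to 221915431, was at 6.07, 10.5 and 6.38 FPKM in the control, JUN WT and JUN AA. DUSP14, on chromosome 17 from 35849997 to 35873603, was at 68.8, 97.1 and 58.4 FPKM in these libraries. Their log2 changes in JUN WT, 0.70 and 0.49, became 0.26 and 0.19 once the trend with GC content was removed, and that of DUSP6 became 0.35. In JUN WT the change across all genes ran against transcript GC content, with a Spearman's rho of -0.39 over 9393 genes, which are not independent. DUSP1 and DUSP5, whose transcripts have a GC content of 55.2% and 55.8%, moved little under that setting, to 0.97 and 1.03.

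The SPRED genes stayed close to the control in JUN WT and were lower in JUN AA. SPRED1, on chromosome 15 from 38545037 to 38649450, was at 3.05 FPKM in control cells, 2.53 with JUN WT and 1.67 with JUN AA. SPRED2, on chromosome 2 from 65537985 to 65659771, was at 5.22, 5.61 and 3.20 FPKM. In JUN AA their log2 changes were -0.61 and -0.57, values that 11.2% and 12.7% of the tested genes undercut.

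Set directly against each other, JUN WT was higher than JUN AA for all 9 genes that passed the filter, under each of the 5 settings computed for single genes as well. This share compares with 62.5% of all genes tested. The 9 log2 differences ran from 0.40 for SPRED1 to 1.39 for SPRY2, with a median of 0.80 against 0.18 over all genes. SPRY2, DUSP6 and DUSP5 were at least 2-fold higher, at 1.39, 1.27 and 1.15, where 6.65% of all genes were. None was at least 2-fold lower, against 5.61% of all genes (12.3% in either direction). The count of 3 depended on the scaling. It was 6 with rescaled FPKM, where 17.2% of all genes were higher and 3.53% lower, 2 with centred changes, where 3.99% were higher and 7.97% lower, and 0 with the GC trend removed, where 3.57% were higher and 5.67% lower and the median of the 9 genes was 0.62. DUSP4 was at -0.035. The comparisons with the control share that library with each other, and the direct comparison uses the same libraries again.

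**Figure D2:**
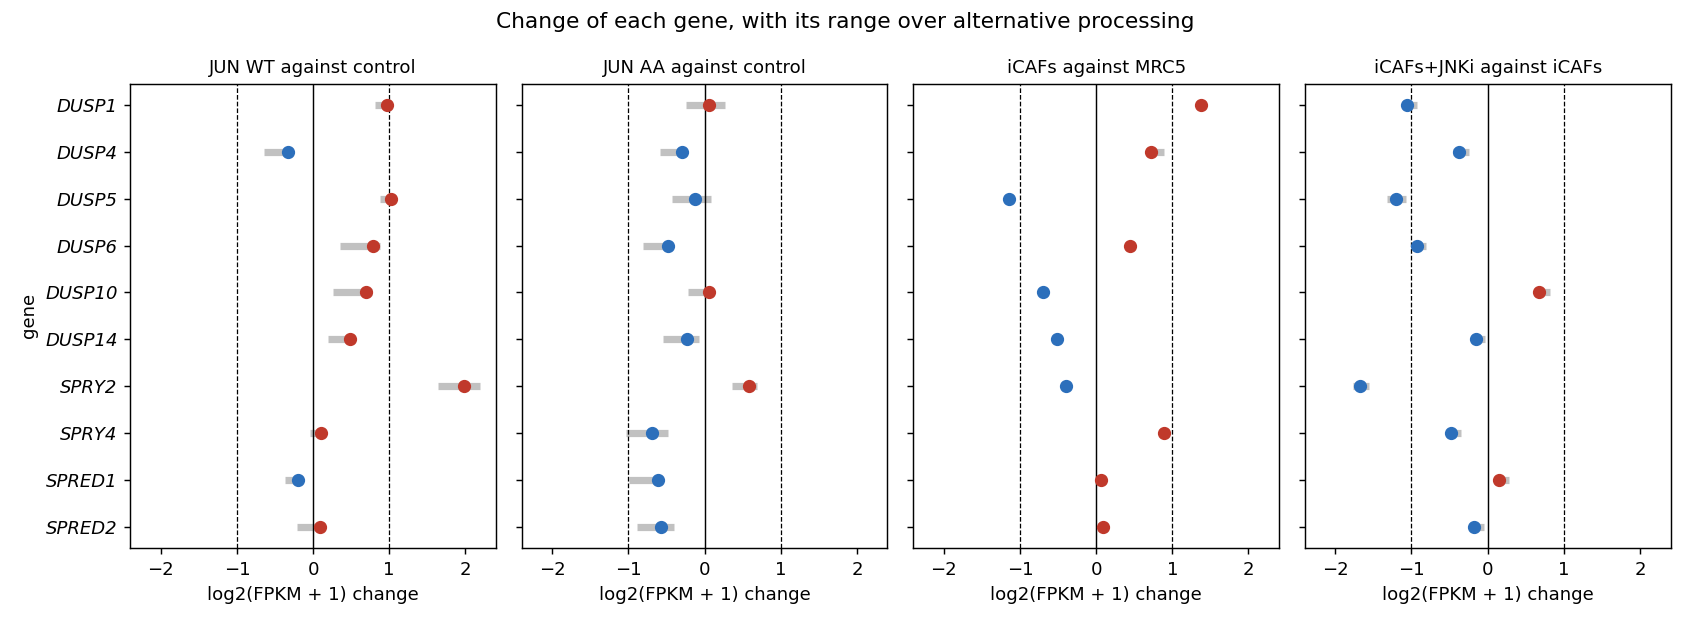
Log2(FPKM + 1) change of each gene in 4 comparisons, with red points above 0, blue points at or below 0, a grey bar for the range over the alternative settings and dashed lines at 2-fold. SPRY2 is at 1.98 in JUN WT and at -1.67 in iCAFs+JNKi, and DUSP1 and DUSP5 lie on opposite sides in iCAFs, at 1.38 and -1.15.

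The second experiment first compared iCAFs with MRC5 to ask how these genes differed after culture in medium from cancer cells. The paper describes collecting that medium in DMEM without FBS, whereas MRC5 cells were maintained with FBS. It does not say whether serum was added back, so cancer cell medium and serum cannot be told apart here. DUSP1 rose and DUSP5 fell, each 1 of 10 genes, where 1.94% of all 11780 genes tested rose and 1.71% fell (3.65% together). The median of the 10 genes was 0.078, against -0.061 over all genes. Of the 10 genes 6 were higher, where 40.6% of all genes were, and 4 were lower. DUSP1 was at 32.6 FPKM in MRC5 and 86.7 FPKM in iCAFs, a 2.66-fold increase with a log2 change of 1.38, which 1.17% of the tested genes exceeded. DUSP5 was at 32.0 FPKM in MRC5 and 13.9 FPKM in iCAFs, a ratio of 0.43 and a log2 change of -1.15, which 1.17% of the genes undercut. In MRC5 these nuclear phosphatases were thus at nearly the same level, and in iCAFs they stood far apart.

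The other 8 genes changed less than 2-fold in iCAFs. SPRY4 was at 13.96 FPKM in MRC5 and 26.8 FPKM in iCAFs, with a log2 change of 0.89 that 2.30% of genes exceeded. SPRY2 was at 40.5 and 30.5 FPKM, with a log2 change of -0.40, so these Sprouty genes differed in direction. DUSP6 was at 28.6 FPKM in MRC5 and 39.2 FPKM in iCAFs, and the low DUSP4 was 1.89-fold higher. DUSP10, the JNK and p38 phosphatase, was at 27.9 FPKM in MRC5 and 16.9 FPKM in iCAFs, with a log2 change of -0.70. DUSP14 was at 61.9 and 43.0 FPKM. SPRED1 was at 9.90 and 10.4 FPKM and SPRED2 at 10.1 and 10.8 FPKM. Among 10 genes, the order of levels changed from DUSP14, SPRY2 and DUSP1 at the top in MRC5 to DUSP1, DUSP14 and DUSP6 in iCAFs.

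JNKi was then added to iCAFs to block phosphorylation of JUN. SPRY2, DUSP5 and DUSP1 fell in iCAFs+JNKi against iCAFs, and no member rose, where 1.97% of all genes fell and 2.25% rose (4.22% together). With rescaled FPKM 2.07% fell and 3.49% rose, and with centred changes 1.54% fell and 2.74% rose. The median of the 10 genes was -0.43, against -0.099 over all genes tested. Of the 10 genes 2 were higher, where 37.4% of all genes were, and 8 were lower. The same 8 were lower in each of the 5 settings computed for single genes. With rescaled FPKM the median of all genes was at 0.014, and DUSP14 and SPRED2 were only just lower, at -0.032 and -0.068. SPRY2 went from 30.5 FPKM in iCAFs to 8.90 FPKM with JNKi, a 3.42-fold decrease. Its log2 change of -1.67 was undercut by 0.49% of the tested genes, and it lay between -1.76 and -1.55 across the settings. DUSP5 went from 13.9 to 5.49 FPKM, a log2 change of -1.20. DUSP1 went from 86.7 to 41.1 FPKM, at -1.06, which became -0.93 with the GC trend removed and also passed above -1 with rescaled FPKM or centred changes. DUSP6 lay just outside the threshold, at 39.2 FPKM in iCAFs and 20.1 FPKM with JNKi, a log2 change of -0.93.

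Of the remaining genes, DUSP10 and SPRED1 were higher with JNKi and the others were lower, none by 2-fold. DUSP10 was at 16.9 FPKM in iCAFs and 27.5 FPKM with JNKi, a log2 change of 0.67 that 4.37% of genes exceeded. SPRY4 was at 26.8 and 18.9 FPKM, at -0.48, and DUSP4 at 5.08 and 3.67 FPKM, at -0.38. DUSP14, SPRED1 and SPRED2 were at log2 changes of -0.16, 0.15 and -0.18, where the quartiles of all genes tested were -0.31 and 0.12.

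Compared with untreated MRC5, the JNKi library shows which genes were near their starting level. DUSP5 and SPRY2 had fallen, at log2 differences of -2.35 and -2.07, which 0.21% and 0.33% of the tested genes undercut, and 3.53% of all genes had fallen and 3.28% had risen (6.81% together). With rescaled FPKM 3.38% fell and 4.93% rose, and with centred changes 2.27% fell and 4.39% rose. DUSP5 was at 32.0 FPKM in MRC5 and 5.49 FPKM with JNKi, with the iCAFs library between them. SPRY2 was at 40.5 FPKM in MRC5 and 8.90 FPKM with JNKi, and most of that difference lay between iCAFs and iCAFs+JNKi. DUSP1 differed from MRC5 by 0.32 and DUSP10 by -0.024. For these genes the iCAFs library was the one that stood apart, above the others for DUSP1 and below them for DUSP10. SPRY4 was at 13.96 FPKM in MRC5 and 18.9 FPKM with JNKi, a log2 difference of 0.41. The 3 comparisons of this table use the same 3 libraries and are not independent of each other.

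**Figure D3:**
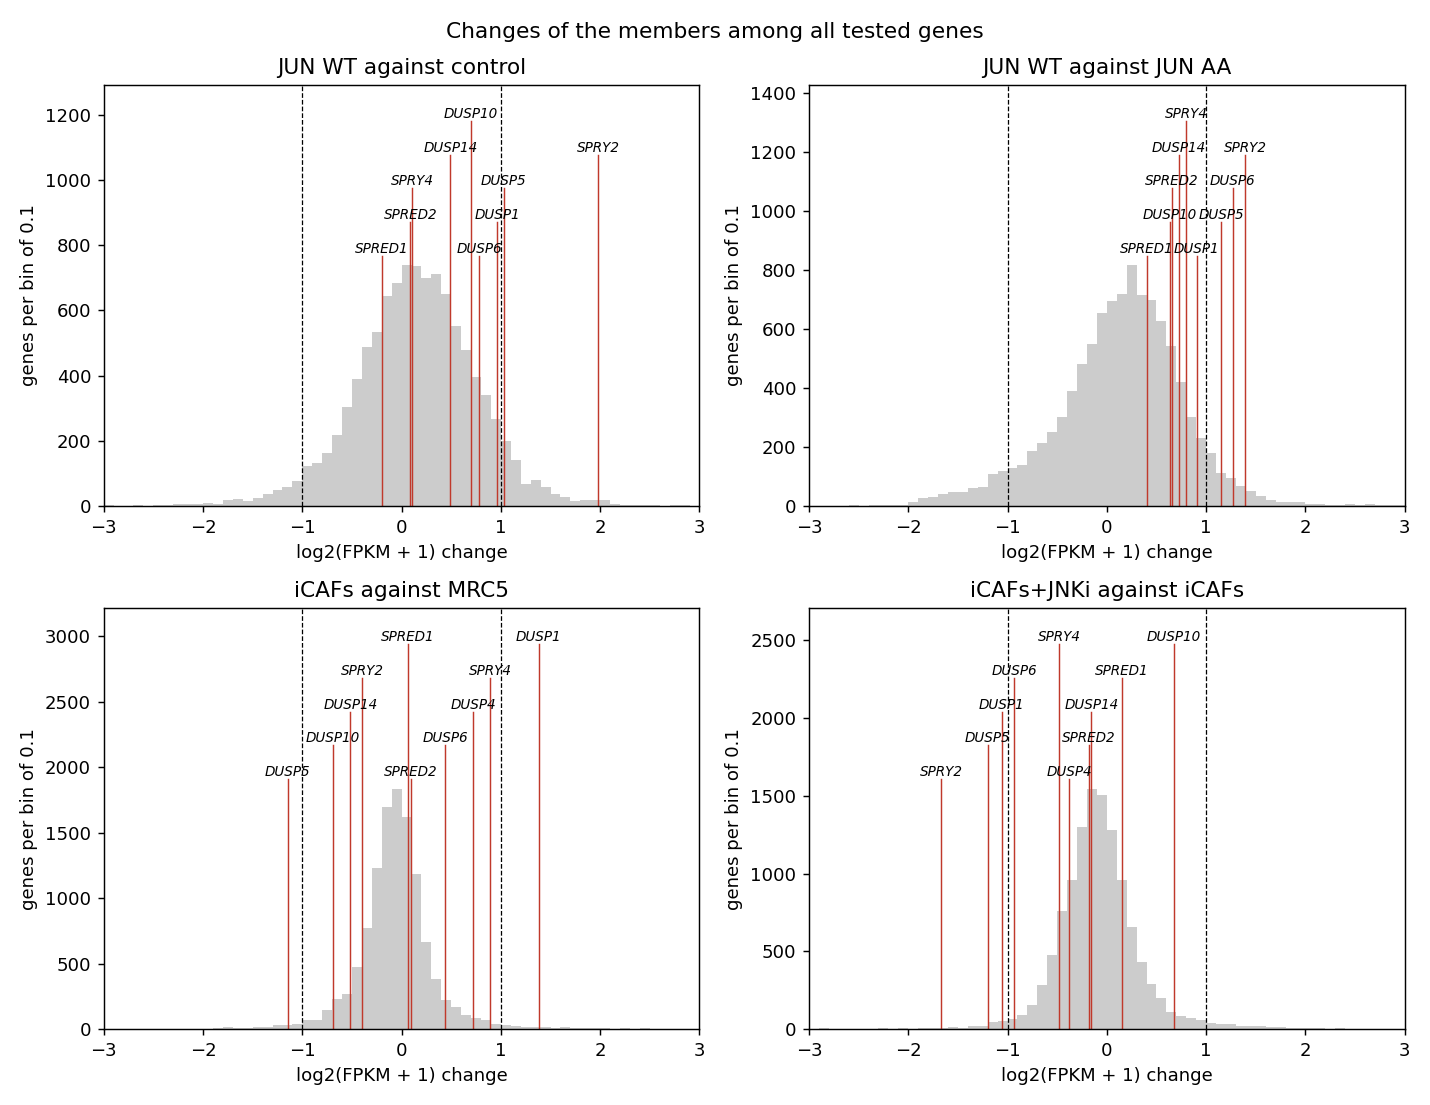
Log2(FPKM + 1) changes of all tested genes (grey histogram, genes per bin of 0.1) with a red line and a name for each of the 10 genes that passed the filter, and dashed lines at 2-fold, in 4 comparisons (genes beyond the axis limits are not drawn). In JUN WT against JUN AA all 9 lines lie to the right of 0.40, and in iCAFs+JNKi against iCAFs the lines of SPRY2, DUSP5 and DUSP1 lie at or beyond the left dashed line.

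The JUN overexpression and JNKi experiments share no library, so their values can be set side by side. DUSP5 and SPRY2 rose in JUN WT against the control and fell in iCAFs+JNKi against iCAFs, which is 2 of the 9 genes measured in both tables. Over all 10020 genes measured in both, 65 did so (0.65%). With centred changes SPRY2 alone of the 9 did so, as DUSP5 was at 0.88 in JUN WT, against 0.38% of all genes. Without regard to size, 7 of 9 genes were higher in JUN WT and lower with JNKi, against 43.6% of all genes. This count was 5 of 9 with centred changes, against 30.6% of all genes, and 5 of 9 with the GC trend removed, against 31.5%, since SPRY4 and SPRED2 turned negative in JUN WT. The exceptions among the 9 were DUSP10, which was higher in both, and SPRED1, which was lower in JUN WT and higher with JNKi. These patterns were chosen after their values were seen.

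Genes with the most similar pattern were sought over 4 changes (JUN WT and JUN AA against the control, iCAFs against MRC5, and iCAFs+JNKi against iCAFs), by Euclidean distance on the log2 scale among the 10020 genes. These 4 changes share the control and the iCAFs library between them. For SPRY2 the nearest genes were ODC1, RGMB and SMAGP, at distances of 0.26, 0.32 and 0.59. ODC1, which encodes ornithine decarboxylase, had changes of 2.02, 0.58, -0.22 and -1.84. For DUSP1 they were GFPT2, PLAUR and BTN2A2, at 0.35, 0.43 and 0.46, for DUSP5 they were E2F7, KIAA1217 and ARHGAP22, at 0.43, 0.45 and 0.59, and for DUSP6 they were TICAM1, TNFRSF10A and VPS33B, at 0.27, 0.35 and 0.39. The nearest of the other 8 members ranked far behind these. It was DUSP6 for DUSP1, at rank 92, DUSP5 for SPRY2, at rank 163, DUSP14 for DUSP5, at rank 419, and SPRY4 for DUSP6, at rank 706.

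Related family genes and the kinases themselves were counted from lists of family and pathway names. Of 8 further phosphatase, Sprouty and SPRED genes, 3 passed the filter in the JUN overexpression table (DUSP7, SPRY1 and SPRED3). None of these rose or fell in JUN WT or JUN AA against the control, or in JUN WT against JUN AA. As 10.3%, 9.06% and 12.3% of all genes changed in those comparisons, a count of 0 among 3 genes is near the background. Among the JNKi libraries, the filter left 4 of the 8 genes. SPRY1, a Sprouty gene, was the 1 of these 4 that rose with JNKi, where 2.25% of all genes did. It went from 1.08 FPKM in iCAFs to 3.52 FPKM, and was at 1.89 FPKM in MRC5, so its change of 1.12 had the opposite sign to that of SPRY2. SPRED3 was at 8.10, 7.63 and 3.34 FPKM in MRC5, iCAFs and iCAFs+JNKi, with a log2 change of -0.99 with JNKi. Against MRC5 the JNKi library was at -1.07 for SPRED3, past the threshold, where 3.53% of all genes fell. DUSP16, another JNK and p38 phosphatase, was at 1.92, 3.05 and 1.11 FPKM in these libraries, and its change with JNKi of -0.94 was opposite in sign to that of DUSP10. SPRY1 in iCAFs and DUSP16 with JNKi were close to 1 FPKM, so their changes rest on an unknown number of fragments.

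The 19 genes of the RAS, RAF, MEK and ERK core all passed the filter in both tables. Their median was 0.060 in JUN WT against the control, -0.016 in JUN WT against JUN AA and -0.19 in iCAFs+JNKi against iCAFs. In JUN WT against the control 2 of the 19 rose and 1 fell, where 6.92% of all genes rose and 3.39% fell. The named members past the threshold were MAP2K1, which encodes the kinase MEK1 and rose by a log2 change of 1.11, and the scaffold gene KSR1, which fell from 3.04 to 0.82 FPKM. None of the 19 rose or fell in JUN AA against the control, in JUN WT against JUN AA, in iCAFs against MRC5 or with JNKi. In those comparisons 9.06%, 12.3%, 3.65% and 4.22% of all genes changed, and at such shares few of 19 genes would be past the threshold. NF1, which encodes the neurofibromin that SPRED proteins recruit, was at 2.34, 1.90 and 2.62 FPKM in the control, JUN WT and JUN AA and at 11.4, 13.3 and 11.6 FPKM in MRC5, iCAFs and iCAFs+JNKi.

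Genes commonly induced by ERK were counted alongside, and 10 of 11 passed the filter in each table. Against the control, CCND1 and EGR1 rose in JUN WT, where 6.92% of all genes did. In that comparison 5 of the 10 were higher and 5 lower, where 60.9% of all genes were higher. Their median was 0.23, beside 0.70 for the phosphatase and Sprouty genes and 0.15 over all genes. That 0.70 became 0.26 with the GC trend removed, and the alternative settings were not computed for the ERK list. In JUN AA against the control EGR1, EPHA2 and FOSL1 fell, where 3.77% of all genes did, and none rose, with a median of -0.17. In JUN WT against JUN AA, EGR1, CCND1, MYC and FOSL1 were at least 2-fold higher, 4 of 10 where 6.65% of all genes were, and none was 2-fold lower, with a median of 0.75 beside 0.80. In iCAFs against MRC5, IER3 and PHLDA1 rose and none fell, where 1.94% of all genes rose, with a median of 0.031. EGR1, an immediate early transcription factor, was at 2.74 FPKM in control cells, 6.50 with JUN WT and 0.74 with JUN AA. FOSL1, which encodes an AP-1 partner of JUN, was at 56.9, 54.4 and 26.2 FPKM. With JNKi all 10 were lower than in iCAFs, where 37.4% of all genes were higher. The median of the 10 was -0.56, against -0.099 over all genes. PHLDA1 was only just lower, at -0.067, a smaller difference than that of the median gene. IER3, an immediate early gene, and FOSL1 fell, where 1.97% of all genes did. IER3 was at 4.97 FPKM in untreated MRC5, 32.5 in the iCAFs library and 7.01 after JNKi, a pattern in which, as for DUSP1, iCAFs stood above both other libraries.

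**Figure D4:**
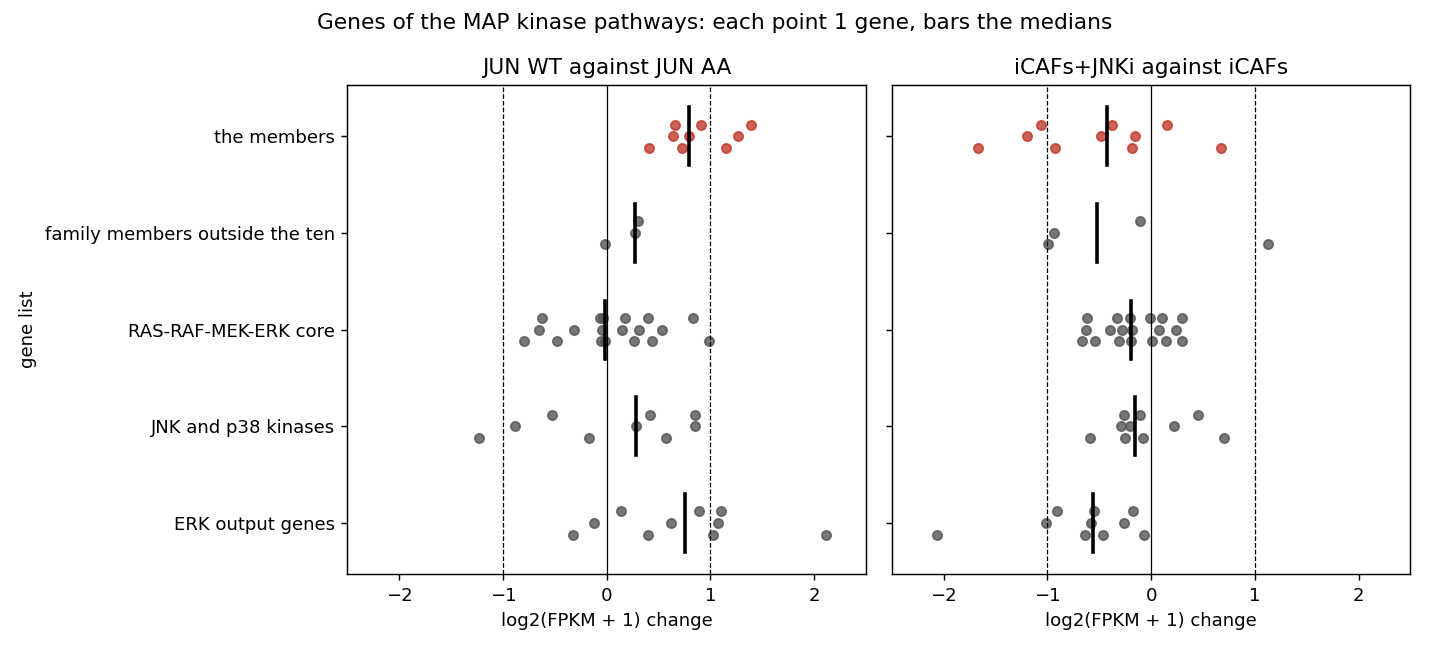
Log2(FPKM + 1) changes of genes that passed the filter, by list, in JUN WT against JUN AA (left) and iCAFs+JNKi against iCAFs (right), with 1 point per gene, a black bar for the median of each list and dashed lines at 2-fold. The median of the 9 phosphatase, Sprouty and SPRED genes is 0.80 in JUN WT against JUN AA, while that of the kinase core is -0.016. With JNKi the ERK output genes all lie below 0, PHLDA1 only just, at -0.067.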

How the data were processed

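RNA-seq libraries from MRC5 cells were analysed, 1 for each of 6 conditions. The authors mapped reads to hg19 with hisat2 2.1.0 at default parameters and deposited FPKM per gene from StringTie 2.1.1 in 2 tables. The annotation, the strand setting and the number of reads are not given in the sources used here, so the depth and the precision of single values are unknown. Conditions follow the labels, and each column was matched to a library by its title. Each table has 25370 rows. Where a symbol had several rows, that of the largest mean was used.

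Differences of log2(FPKM + 1) were computed in Python 3.11.15 (numpy 2.4.6, pandas 2.3.3) for 6 comparisons, each within its table. Counts and medians were limited to genes averaging 1 FPKM or more in the 3 libraries of a table, 10311 and 11780 genes, with a threshold of 2-fold. The computation was tested on simulated data. With 1 library per condition no test was run. The genes and the lists were chosen with earlier results of these data known. All 10 genes are named. From the other lists, genes changed at least 2-fold and further family members may be named. One gene of the kinase core is not reported here by name. NF1 falls outside this rule and was chosen after its values were seen. Similar genes are the 3 nearest by distance. Gene positions and exon sharing come from GENCODE on GRCh37, the assembly also called hg19, and promoters from RefSeq on GRCh38.p14. Transcript GC content was found for 91.1% and 90.4% of the genes. The 7 alternatives were 0.1 as the pseudocount, scaling each library to an FPKM total of 1000000, subtracting the change of the median gene (centred changes), adding up the rows of a symbol, no filter, a filter of 5 FPKM, and removal of the median change in 20 bins of GC content. For the pattern shared by both tables, the settings were added after seeing the data. Figures were drawn with matplotlib 3.10.9.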

Additional observations from a re-analysis of the deposited data

How the results depend on the processing

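A value was taken to have moved at a change of more than 0.25 on the log2 scale or 1.5 times for counts, limits chosen here because there are no replicates. Over 7 alternatives, 77 values of the counts and medians of the 10 genes stayed within these limits and 7 moved. Single genes were followed over the 5 alternatives that leave the filter as it was, or 4 for DUSP4 in the JUN overexpression table. Of those values 265 stayed and 32 moved. Adding up the rows of a symbol could not move the 10 genes, as each table has 25370 rows for 25368 symbols and their values were unchanged. That alternative is counted among the values that stayed. No single gene that was at least 2-fold changed reversed. In JUN WT against the control, 1 gene was changed at least 2-fold with centred changes, and the median of the genes was 0.26 with the GC trend removed. In JUN AA against the control, rescaled FPKM gave 1 changed gene and a median of -0.54. In JUN WT against JUN AA, rescaled FPKM gave 6 changed genes and a median of 1.14, and removal of the GC trend gave 0. The cause of these shifts was not tested. No paired analysis was possible because each condition has 1 library, and for the same reason no replicate could be left out. The unknown depth limits what can be said of DUSP4 and of other genes near 1 FPKM.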

Other observations

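Growth factors that signal through the receptors upstream of RAS were also measured. Of 15 ligand genes, 11 passed the filter in the JNKi table, and 6 of them rose in iCAFs against MRC5 (AREG, EREG, HBEGF, NRG1, FGF2 and FGF7), while FGF1 fell, where 1.94% of all genes rose and 1.71% fell. With JNKi, HBEGF, NRG1, FGF2 and FGF5 fell and none rose, where 1.97% of all genes fell and 2.25% rose. HBEGF, a ligand of the EGF receptor, was at 5.95 FPKM in untreated MRC5, 23.8 in the iCAFs library and 3.36 after JNKi. AREG, which binds the same receptor, had 1.97, 71.8 and 117 FPKM in those libraries, so these ligands differed in sign with JNKi. FGF7, which acts mainly on epithelial cells, had 13.8, 52.5 and 73.9 FPKM. In JUN WT against the control, FGF5, HBEGF and FGF2 rose and AREG and FGF7 fell, of 10 that passed, where 6.92% of all genes rose and 3.39% fell.

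Of 7 receptor genes that passed the filter, PDGFRA and PDGFRB fell in JUN WT and in JUN AA against the control, where 3.39% and 3.77% of all genes fell. Both rose with JNKi, of 6 that passed, where 2.25% of all genes rose. PDGFRB was at 60.4 FPKM in control cells, 13.8 with JUN WT and 15.8 with JUN AA, and at 27.4, 23.1 and 74.8 FPKM in MRC5, iCAFs and iCAFs+JNKi. Among JNK and p38 kinases and the kinases that activate them, MAP2K3 and MAP2K4 rose in JUN WT against the control and MAPK11 fell, of 9 that passed. Over all genes 6.92% rose there and 3.39% fell. None of 10 rose or fell in iCAFs against MRC5 or with JNKi. As 3.65% and 4.22% of all genes changed in those comparisons, a count of 0 is near these shares.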
